A study of Mus musculus with 6 samples.

Results

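The respiratory complex assembly factors are nuclear-encoded proteins that build the 5 complexes of oxidative phosphorylation (OXPHOS) in the mitochondrial inner membrane without being part of the finished complex. They were followed in metaphase II (MII) oocytes of ICR mice aged 42 to 45 weeks, which had matured either in vitro (IVM) or in vivo (IVO). The 43 members were chosen by gene symbol from the 60193 genes of the expression table, and all 43 were found, each with 1 Ensembl identifier. All are annotated as protein-coding genes. By the complex they serve, 14 belong to complex I, 4 to complex II, 6 to complex III, 16 to complex IV and 3 to complex V.

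IVM oocytes had been stripped of cumulus cells at the germinal vesicle stage and cultured for 12 h in M16 medium, after injection of the mice with PMSG. IVO oocytes were taken from the oviduct 14 h after hCG, which followed the same PMSG priming, and cumulus cells were then dispersed with hyaluronidase. Both groups thus carried the same hormone priming and strain, whereas hCG, ovulation and the presence of cumulus cells during maturation all differed together and cannot be told apart. Each of the 6 samples (3 IVM, 3 IVO) pooled 20 oocytes from 3 mice, so a value is the mean of a pool and says nothing about single oocytes. The unit is FPKM, the fragments on a gene scaled to the length of its transcript and to the depth of the library.

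A complex of the respiratory chain is put together in modules. Assembly factors hold the newly made subunits, insert copper, heme, flavin and iron-sulfur groups, and then leave, and loss of single factors is known to cause deficiency of the complex they serve. The mature oocyte is transcriptionally silent and lives on stored mRNA, and its mitochondria, which are inherited by the embryo, are its main source of ATP.

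Low FPKM values rise in steps of 1 fragment, and from these steps the IVM libraries held 16400000 to 19300000 fragments of 204 to 217 bases on average. The IVO libraries held 17900000 to 18000000 fragments, and these were longer, at 246 to 261 bases. At this depth 3 fragments on a transcript of 1000 bases correspond to 0.196 to 0.233 FPKM, a limit that covers counting error only. The 10 oocyte markers were all tested, and together they reached 11195 to 13784 FPKM in IVM and 8142 to 9115 FPKM in IVO samples. Dppa3 alone reached 5339 to 8931 FPKM in IVM and 5675 to 6351 FPKM in IVO samples. In the fit described below, all 10 markers had a negative log2FC (lower in IVO), with a median of -1.48, and 5 passed its thresholds. Of 12 cumulus and granulosa cell markers, 9 stayed under 1 FPKM in every sample and Amh was listed at 0. The other 3, Fshr, Cyp19a1 and Nr5a2, made up nearly all of the list's summed 62.1 to 64.6 FPKM in IVM and 43.9 to 53.4 FPKM in IVO samples. Nr5a2 was lower in IVO (28.3 to 39.2 against 13.5 to 17.8 FPKM), while Fshr and Cyp19a1 overlapped. At their low levels, Has2 (0.04 to 0.14 FPKM in IVM, 0.17 to 0.37 in IVO), Ptx3 (0 to 0.03, 0.07 to 0.17) and Tnfaip6 (0 to 0.14, 0.34 to 0.49) were higher in every IVO sample. Foxl2, Cyp11a1, Inha, Inhba and Ptgs2 overlapped between the groups. The 6 blood and immune cell markers summed to 1.7 to 2.7 FPKM in IVM and 3.3 to 25.0 FPKM in IVO samples. The highest sum was that of IVO replicate 3, with Lyz2 at 15.67 FPKM (at most 1.04 in the other samples) and Cd74 at 3.43 FPKM (at most 0.55). The part of other cells in the values of the assembly factors was not tested.

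The assembly factors were expressed over a wide range. The average over the 6 samples reached 100 FPKM in 6 members (Sdhaf4, Ndufaf2, Cox14, Atpaf1, Lyrm7 and Atpaf2), 14 lay between 10 and 100, 12 between 1 and 10, and 11 below 1. Their FPKM summed to 2331, 2448 and 1962 in the IVM samples and to 1214, 1374 and 1522 in the IVO samples, with all IVO sums below the lowest IVM sum. The median FPKM of all tested genes was lower in IVO as well, at 9.63 to 10.4 in the IVM libraries and 6.66 to 7.13 in the IVO libraries, and the FPKM of all genes summed to 1826738 to 2111776 in IVM and 1560813 to 1643682 in IVO. The 4 members with the highest mean made up 57.2% to 64.4% of the summed FPKM of the assembly factors after IVM. After IVO these 4 made up 52.5% to 60.2% of the sum of the assembly factors.

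The 11 members below a mean of 1 FPKM were not tested. They were Ndufaf1, Ecsit, Tmem126b, Timmdc1 and Foxred1 of complex I, Sdhaf1 of complex II, Uqcc3 and Bcs1l of complex III, and Sco1, Sco2 and Cox15 of complex IV. Their highest value in any sample was 1.32 FPKM, in Sdhaf1. Ecsit and Ndufaf1 act in the intermediate assembly of complex I, and Foxred1, the lowest of all at a mean of 0.067 FPKM, acts later. Sco1, Sco2 and Cox15 serve the copper and heme sites of complex IV. No direction is given for these genes.

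The IVO pools were set against the IVM pools in a limma fit of log2(FPKM + 1) that took in 18818 genes, all those averaging 1 FPKM or more, and 32 of the members. Differentially expressed genes (DEGs) had to pass both |log2FC| ≥ 1 and an adjusted p-value under 0.05. A negative log2FC stands for a lower level in IVO, and on this scale it makes changes at a low level look smaller. Of the 32 tested members, 7 (21.9%) were DEGs lower in IVO, where the share over all tested genes was 17.9%, and 0 were DEGs higher in IVO, where the share over all tested genes was 0.606%. Ndufaf5, 1 of the 7, and Ndufaf3 reached the minimum mean only through IVM, as did 1653 of all tested genes. Their lower direction in IVO was therefore fixed by this filter in the counts given here. Of the 13154 tested Ensembl genes, to which all members belong, 14.6% were DEGs lower in IVO. The share of lower DEGs among the members was therefore near that of all tested genes and somewhat above that of the Ensembl genes. These differences were not tested. Without the threshold on the fold change, 11 members (34.4%) had an adjusted p-value under 0.05 and were lower, beside 21.5% of all tested genes, and 1 was higher, beside 1.87%. At an unadjusted p under 0.05 in limma, 15 members were lower (beside 31.4% of all tested genes) and 1, Coa3, was higher (beside 5.56%). The log2FC as deposited was negative in 26 of the 32 (beside 66% of all tested genes), and 10 of these signs turned positive with quantile normalization. No IVO value reached the IVM values in 18 members (56.2%, beside 32.6% of all tested genes), and the reverse held in 2, Coa3 and Cox18 (beside 9.62%). The median log2FC was -0.53 for the tested members, -0.30 for all tested genes and -0.18 for the tested Ensembl genes. With median-ratio scaling, which moves the median of all tested genes to -0.04, 2 members were DEGs lower and 1 was a DEG higher in IVO, and the median of the members was -0.25. FPKM is relative to the library, and less RNA of a gene per oocyte cannot be told apart from more RNA of other genes or from fewer oocytes with that RNA.

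**Figure D1:**
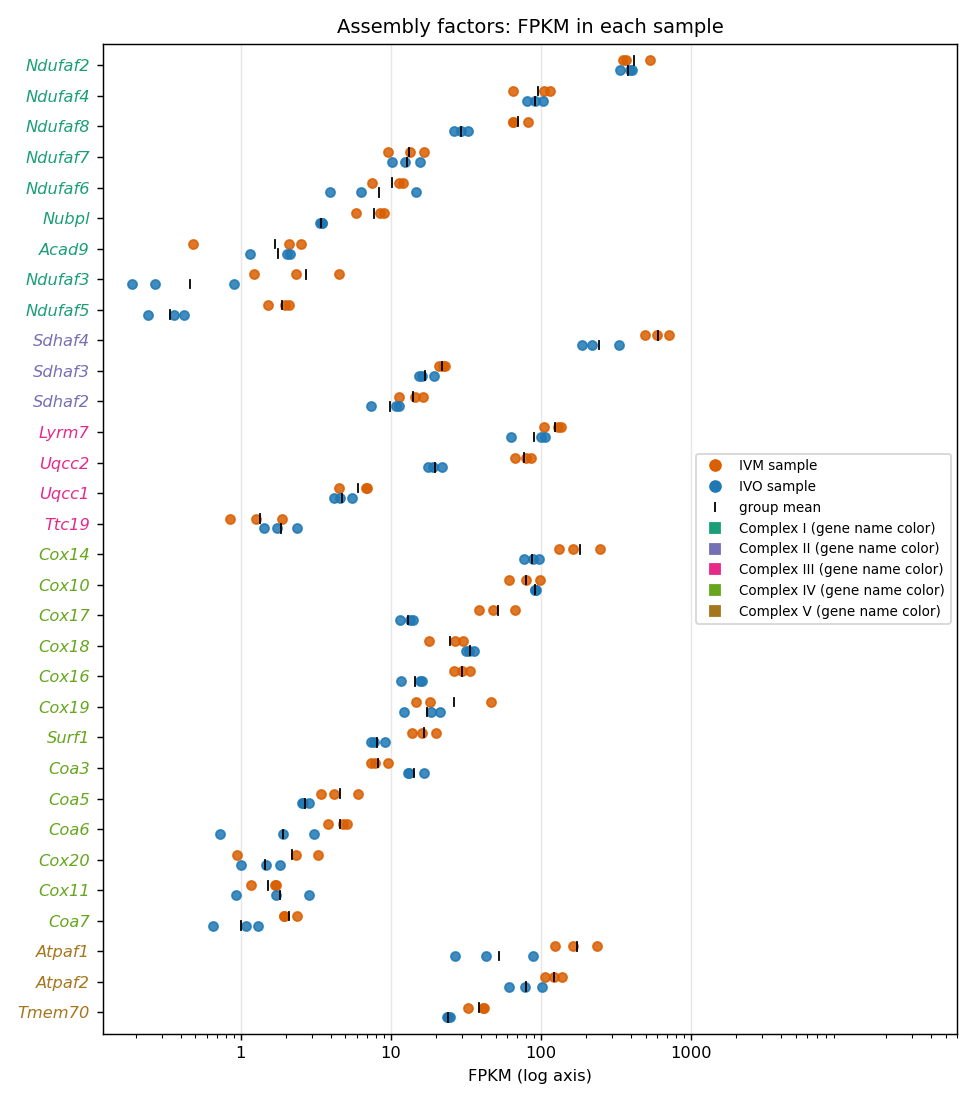
FPKM (log axis) of the 32 tested assembly factors in each of the 3 IVM and 3 IVO samples, ordered within each complex by mean FPKM, with a black tick at each group mean. Sdhaf4 and Ndufaf2 lie highest, and the IVM and IVO points of Uqcc2, Cox17, Ndufaf8 and Sdhaf4 are apart while those of Ndufaf2, Ndufaf4 and Ndufaf7 overlap.

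Among the complex I factors, Ndufaf8 and Ndufaf5 were lower in IVO, and the most abundant factors, Ndufaf2 and Ndufaf4, showed no difference beyond the spread between replicates. Ndufaf8, a small partner that stabilizes Ndufaf5, is encoded on chromosome 11 (GRCm39, 119989736 to 119991531). The IVM pools held 81.9, 65.1 and 65.8 FPKM, against 29.5, 32.7 and 26.6 FPKM in the IVO pools. All IVM pools lay well above all IVO pools, and the spread within each group was small. The log2FC of -1.23 (standard error, SE, 0.19, adjusted p = 0.00560) passed both thresholds, also in all 6 fits with 1 sample left out. With median-ratio scaling the log2FC of Ndufaf8 was -0.92 (adjusted p = 0.0209), and with quantile normalization it was -0.75 (adjusted p = 0.0279). With the length trend removed from each library, its log2FC was -0.35 (adjusted p = 0.221) and it was no longer a DEG.

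Ndufaf5, which hydroxylates an arginine of the subunit Ndufs7, is encoded on chromosome 2 (140012562 to 140047301). The pools held 1.52, 1.99 and 2.11 FPKM after IVM, against 0.24, 0.36 and 0.42 FPKM after IVO, with no overlap. These levels rest on an estimated 23.7 to 38.6 fragments per IVM sample and 3.9 to 6.9 fragments per IVO sample. The log2FC was -1.10 (SE 0.25, adjusted p = 0.0205), and it was not a DEG without IVO replicate 1 or without IVO replicate 2. With a pseudocount of 0.1 its log2FC was -2.17 (adjusted p = 0.0264), and its mean FPKM in IVO was 0.181 of that in IVM. Ndufaf5 and Ndufaf3 passed the filter on low values only through their level in IVM, as did 1653 of all tested genes.

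Ndufaf3, which binds the early quinone module together with Ndufaf4, had 4.56, 1.22 and 2.35 FPKM after IVM, against 0.27, 0.19 and 0.91 FPKM after IVO. The groups did not overlap, but the IVM samples spread widely and the log2FC of -1.28 (SE 0.40) had an adjusted p of 0.0573. Without IVM replicate 2 it was a DEG, at a log2FC of -1.60, and with a pseudocount of 0.1 its log2FC was -2.37 (adjusted p = 0.0570). Its partner Ndufaf4 was far more abundant, and its groups overlapped. Ndufaf4 had 65.6, 106 and 115 FPKM after IVM, against 92.0, 104 and 80.6 FPKM after IVO, a log2FC of -0.02 (SE 0.25, adjusted p = 0.974).

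Ndufaf2, a chaperone of late complex I intermediates and a relative of the subunit Ndufa12, was the most abundant factor of complex I. It reached 355, 535 and 368 FPKM after IVM, against 337, 394 and 407 FPKM after IVO, and the groups overlapped. The log2FC was -0.12 (SE 0.20, adjusted p = 0.707). Nubpl, which delivers iron-sulfur clusters to complex I, was lower in IVO at 3.51, 3.49 and 3.36 FPKM against 9.04, 8.51 and 5.83 FPKM in IVM samples. Its log2FC of -0.96 (SE 0.23, adjusted p = 0.0235) passed the p-value but not the fold threshold, and it was a DEG without IVM replicate 3, at -1.13. In the other 5 fits with 1 sample left out its adjusted p was 0.0607 to 0.0825.

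The methyltransferase Ndufaf7, Ndufaf6 and Acad9 gave log2FC of -0.04, -0.42 and 0.12, each with overlapping groups and an adjusted p of at least 0.532. Acad9, a flavoprotein of the acyl-CoA dehydrogenase family, was the only tested member of the intermediate assembly group of complex I. The levels were 2.52, 0.48 and 2.09 FPKM after IVM, against 2.13, 1.16 and 2.05 FPKM after IVO. The partners Ndufaf1, Ecsit, Tmem126b and Timmdc1 stayed below 1 FPKM in every sample.

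Sdhaf4 was the most abundant of all 43 members. It binds the flavin-carrying subunit Sdha of complex II before this joins Sdhb, and is encoded on chromosome 1 (24034185 to 24044758). It was listed at 599, 712 and 497 FPKM after IVM, against 221, 187 and 331 FPKM after IVO. All IVO samples lay below all IVM samples, and IVO replicate 3 was nearest to them. The log2FC of -1.31 (SE 0.25, adjusted p = 0.0114) passed both thresholds in each fit with 1 sample left out as well. With median-ratio scaling the log2FC was -0.99, just under the fold threshold, with an adjusted p of 0.0465, and with the length trend removed it was -0.73 (adjusted p = 0.0702).

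No other complex II factor passed the test. Sdhaf2, which attaches the flavin to Sdha, had 11.45, 14.5 and 16.4 FPKM after IVM and 11.37, 10.8 and 7.41 FPKM after IVO, a log2FC of -0.48 (SE 0.24, adjusted p = 0.196). Sdhaf3, of the LYR family that serves the iron-sulfur subunit Sdhb, had a log2FC of -0.36 (SE 0.19, adjusted p = 0.204). The IVM and IVO values of both genes did not overlap, with a narrow gap in Sdhaf2. Sdhaf1, of the same family, had 0.69, 0.23 and 0.98 FPKM after IVM and 1.18, 0.79 and 1.32 FPKM after IVO, and was not tested.

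Uqcc2 had the most negative log2FC of all tested members for log2(FPKM + 1) as deposited. With a pseudocount of 0.1, Ndufaf3 and Ndufaf5 lay lower than Uqcc2 (-1.98), and with the length trend removed Atpaf1 did (-1.53). It binds newly made cytochrome b of complex III together with Uqcc1, and is encoded on chromosome 17 (27341635 to 27352898). The pools held 86.6, 79.3 and 67.2 FPKM after IVM, against 19.2, 17.6 and 22.0 FPKM after IVO. The 3 values of each group lay close together, and the mean in IVO was 0.252 of that in IVM. The log2FC was -1.93 (SE 0.19, adjusted p = 0.00153). It was a DEG in all 6 fits that each left out 1 sample and under all 11 other alternatives, with a log2FC of -1.62 with median-ratio scaling, -1.43 with quantile normalization and -1.16 with the length trend removed.

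Its partner Uqcc1 had 6.98, 4.5 and 6.82 FPKM after IVM and 4.62, 5.50 and 4.17 FPKM after IVO. These groups overlapped, and the log2FC was -0.29 (SE 0.24, adjusted p = 0.430). Lyrm7, a chaperone of the Rieske iron-sulfur protein, was the most abundant complex III factor, with 131, 137 and 104 FPKM after IVM and 63.3, 107 and 101 FPKM after IVO. Its log2FC of -0.48 (SE 0.25, adjusted p = 0.211) did not exceed the spread between replicates. Ttc19, which clears fragments of the Rieske protein, had a log2FC of 0.30 (SE 0.28, adjusted p = 0.484), and Bcs1l, which moves this protein across the membrane, stayed at or below 0.40 FPKM.

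**Figure D2:**
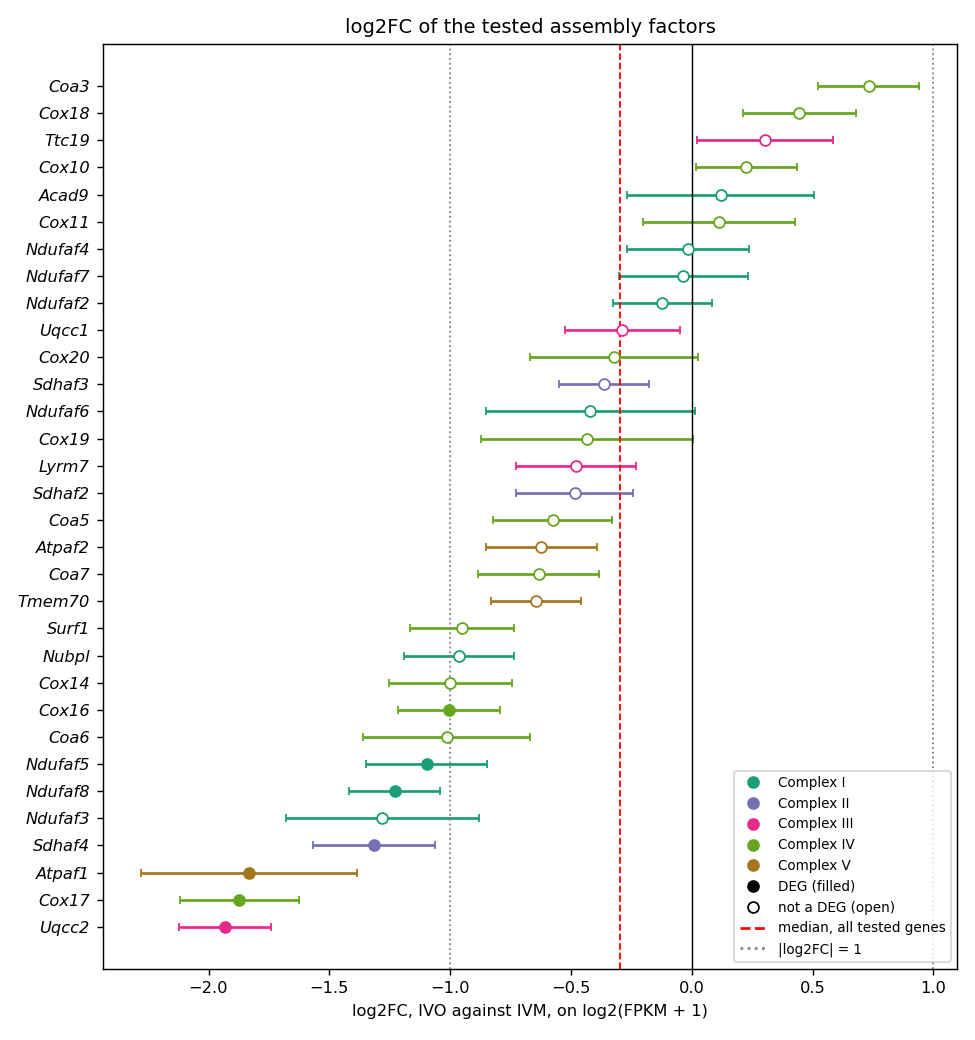
log2FC of IVO against IVM on the log2(FPKM + 1) scale for the 32 tested assembly factors, with bars of 1 standard error, filled points for DEGs, a dashed line at the median of all tested genes (-0.30) and dotted lines at |log2FC| = 1. The 7 filled points run from Cox16 at -1.01 to Uqcc2 at -1.93, and Coa3 lies highest at 0.73.

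Of the complex IV factors, those of the copper pathway made up both DEGs. Cox17, the copper chaperone that hands copper on to Sco1, Sco2 and Cox11, is encoded on chromosome 16 (38167353 to 38182659). It reached 67.9, 47.9 and 39.1 FPKM after IVM, against 14.2, 11.5 and 13.5 FPKM after IVO, with no overlap and a tight IVO group. The log2FC was -1.87 (SE 0.25, adjusted p = 0.00334), it was a DEG in all 6 fits that each left out 1 sample, and its log2FC stayed between -2.05 and -1.66 in them. It was also a DEG under each scaling, and lost this call only where the length trend was removed together with the replicate block (adjusted p = 0.0619), with a log2FC of -1.56 with median-ratio scaling, -1.38 with quantile normalization and -1.02 with the length trend removed.

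Cox16, which takes part in the maturation of the copper-bearing subunit COX2, is encoded on chromosome 12 (81401480 to 81531914). The levels were 26.4, 34.0 and 29.8 FPKM after IVM, against 15.8, 16.1 and 11.7 FPKM after IVO, and the groups did not overlap. The log2FC of -1.01 (SE 0.21, adjusted p = 0.0157) lay at the fold threshold. It was not a DEG without IVM replicate 2 (-0.92) or without IVO replicate 3 (-0.87), and with median-ratio scaling it was -0.70 (adjusted p = 0.0543).

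No other factor of the copper pathway was a DEG. Coa6, which helps to load copper into COX2, had 5.09, 3.85 and 4.79 FPKM after IVM and 3.10, 1.92 and 0.73 FPKM after IVO, a log2FC of -1.02 (SE 0.34, adjusted p = 0.0740), and without IVO replicate 1 it was a DEG at -1.30. Coa5 and Coa7 had log2FC of -0.58 and -0.63 with adjusted p of 0.136 and 0.113. Cox19, a copper-binding relative of Cox17, varied widely among IVM samples, at 18.2, 46.6 and 14.7 FPKM, against 12.2, 18.6 and 21.3 FPKM in IVO samples (log2FC -0.43, SE 0.44). Cox11, which carries copper to COX1, had a log2FC of 0.11 (SE 0.32), and Sco1 and Sco2 stayed at or below 0.56 and 0.32 FPKM.

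Heme A is made from heme B by Cox10 and then Cox15, and Surf1 acts in its insertion into COX1. Surf1 had 13.9, 20.2 and 16.2 FPKM after IVM and 7.77, 7.42 and 9.21 FPKM after IVO, with no overlap. Its log2FC of -0.95 (SE 0.22, adjusted p = 0.0202) passed the p-value but not the fold threshold, and it was a DEG at -1.07 without IVM replicate 1 and at -1.03 without IVO replicate 3. In the other 4 fits with 1 sample left out its adjusted p was 0.0520 to 0.0722. Cox10 had 80.2, 61.7 and 98.5 FPKM after IVM and 91.6, 93.1 and 91.9 FPKM after IVO (log2FC 0.23, SE 0.21, adjusted p = 0.485). Cox15 had a mean below 1 FPKM and was not tested.

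Of the factors of COX1 and COX2 synthesis, Cox14 was lower and Coa3 higher in IVO at an adjusted p-value under 0.05. Cox14 and Coa3 both bind newly made COX1 and tie its translation to assembly. Cox14 was the most abundant complex IV factor, with 247, 165 and 132 FPKM after IVM and 77.2, 97.4 and 88.4 FPKM after IVO, and the groups did not overlap. Its log2FC of -0.9994 (SE 0.26, adjusted p = 0.0303) just missed the fold threshold. It was a DEG without IVM replicate 3, at -1.20, and in the other 5 fits with 1 sample left out its adjusted p was 0.0597 to 0.0892.

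Coa3 was the only member higher in IVO with an adjusted p-value under 0.05. Encoded on chromosome 11 (101163388 to 101169940), it had 7.84, 9.55 and 7.39 FPKM after IVM, against 16.8, 13.2 and 13.1 FPKM after IVO, with no overlap. The log2FC of 0.73 (SE 0.21, adjusted p = 0.0422) was under the fold threshold, and its adjusted p lay between 0.0521 and 0.142 in the 6 fits with 1 sample left out. The log2FC was 1.02 with median-ratio scaling, 1.23 with quantile normalization and 1.19 with the length trend removed, and under these alternatives Coa3 was a DEG higher in IVO. The median log2FC of all tested genes moved up as well, from -0.30 as deposited to -0.04, 0.17 and 0.16 under them. Cox18, the insertase of COX2, had 26.7, 17.9 and 30.2 FPKM after IVM and 31.6, 35.8 and 33.4 FPKM after IVO (log2FC 0.44, SE 0.23, adjusted p = 0.217), and Cox20, a chaperone of COX2, had a log2FC of -0.32 (SE 0.35).

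Atpaf1 had the largest change among the 3 factors of complex V and the widest spread in IVO samples. It binds the beta subunit of the F1 head of ATP synthase, and is encoded on chromosome 4 (115641986 to 115679852). It was listed at 238, 164 and 125 FPKM after IVM, against 26.7, 43.1 and 89.3 FPKM after IVO. The groups did not overlap, and IVO replicate 3 lay nearest to the IVM samples. The log2FC was -1.83 (SE 0.45, adjusted p = 0.0258). Of the 6 fits with 1 sample left out it was a DEG only when IVO replicate 3 was left out, with a log2FC of -2.29, and in the other 5 fits its log2FC lay between -2.05 and -1.44 without passing the adjusted p-value.

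Atpaf2, which binds the alpha subunit, had 138, 123 and 106 FPKM after IVM and 61.6, 101 and 78.1 FPKM after IVO, a log2FC of -0.62 (SE 0.23, adjusted p = 0.0932). Tmem70, needed for the ring of c subunits, had 41.4, 32.6 and 41.9 FPKM after IVM and 24.2, 23.7 and 24.8 FPKM after IVO. The 3 IVO samples of Tmem70 were almost equal, and its log2FC of -0.64 (SE 0.19, adjusted p = 0.0446) passed the p-value but not the fold threshold, whereas with median-ratio scaling it was -0.33 (adjusted p = 0.206). With 1 sample left out, its adjusted p was 0.0359 without IVM replicate 2 and 0.0883 to 0.129 in the other 5 fits.

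Ratios of 2 members within a sample do not depend on a factor common to a whole library, but a shift that varies with gene length stays in them. The 5 pairs of members, chosen after their values were seen, are given as a description, and no share over other gene pairs was computed. Uqcc2 (500 bases, Uqcc1 2633), Ndufaf8 (427, Ndufaf2 678) and Sdhaf4 (683, Sdhaf2 817) are the shorter partner. Cox14 (2090, Coa3 886) and Atpaf1 (2330, Atpaf2 1849) are the longer. The FPKM of Cox14 was 31.5, 17.3 and 17.9 times that of Coa3 in IVM samples and 4.60, 7.36 and 6.73 times in IVO samples. The ratio of Atpaf1 to Atpaf2 was 1.73, 1.33 and 1.18 in IVM and 0.433, 0.426 and 1.14 in IVO samples. The ratio of Uqcc2 to Uqcc1 was 12.4, 17.6 and 9.85 in IVM and 4.16, 3.21 and 5.27 in IVO samples. In these 3 pairs the highest IVO ratio was below the lowest IVM ratio. The same held for Ndufaf8 to Ndufaf2, at 0.122 to 0.231 after IVM and 0.0652 to 0.0874 after IVO, whereas the ratio of Sdhaf4 to Sdhaf2 overlapped, at 30.3 to 52.3 after IVM and 17.3 to 44.6 after IVO.

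The subunits that these factors assemble were counted beside them. Of the 81 tested rows of nuclear-encoded subunits, 45 (55.6%) were lower DEGs and 0 higher DEGs, with a median log2FC of -1.25, where the assembly factors had 7 of 32 and -0.53. Over all tested genes 17.9% were lower DEGs and 0.606% higher DEGs, with a median log2FC of -0.30. By complex, the median log2FC of the factors and of the subunits was -0.42 and -1.32 in complex I, -0.48 and -0.14 in complex II, -0.38 and -1.30 in complex III, -0.58 and -1.70 in complex IV, and -0.64 and -1.08 in complex V. The 13 mitochondrially encoded subunits had a median of 0.64, with 2 DEGs higher in IVO, mt-Atp6 (log2FC 1.17, adjusted p = 0.00599) and mt-Atp8 (1.21, adjusted p = 0.00908), which were named after their values were seen. These are counts for the FPKM as deposited. The subunits are shorter, with a median listed length of 732 bases against 1568.5 bases for the tested assembly factors, and the difference between the lists was not tested.

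**Figure D3:**
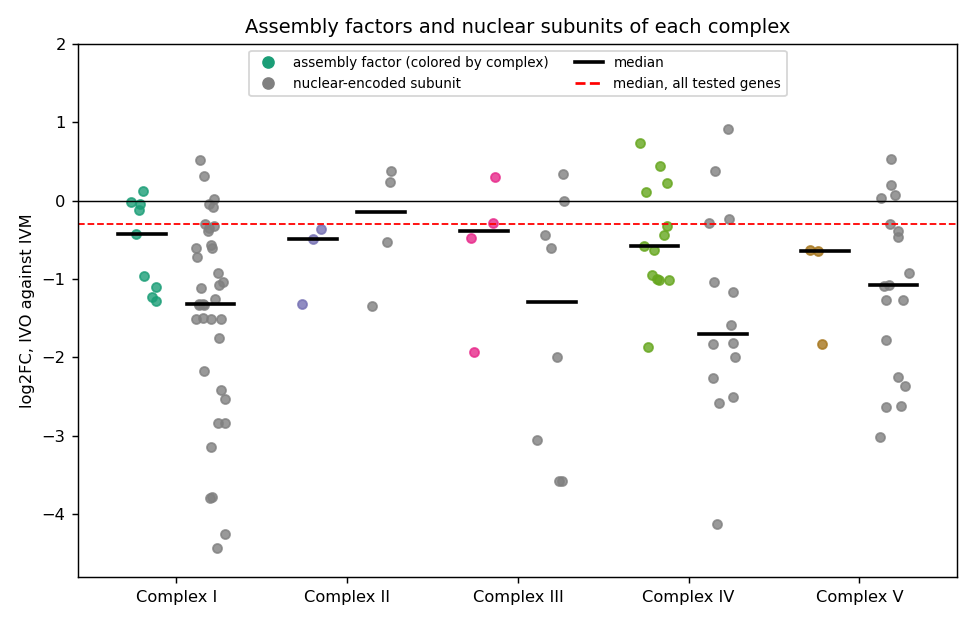
log2FC of IVO against IVM for the tested assembly factors (colored) and the tested nuclear-encoded subunits (grey) of each complex, with black bars at the medians and a dashed line at the median of all tested genes. The median of the subunits lies below that of the factors in complexes I, III, IV and V and above it in complex II.

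A further 27 assembly factors outside the 43 were taken as a list, of which 23 were found and 19 were tested. Lower DEGs numbered 8 (42.1%, beside 17.9% of all tested genes) and higher DEGs 0 (beside 0.606%). The median log2FC was -0.72, beside -0.30 for all tested genes, and these differences were not tested. The 3 with the largest log2FC were Tmem126a, Higd1a and Slirp. Tmem126a, a complex I factor, had 25.8, 22.4 and 26.7 FPKM after IVM and 2.93, 1.88 and 3.30 FPKM after IVO (log2FC -2.83, SE 0.23, adjusted p = 9.38e-04). Its relative Tmem126b, a member, was listed at 0.19 to 0.68 FPKM in the 6 samples. Higd1a, which associates with complex IV, had a log2FC of -1.80 (adjusted p = 0.00452), and Slirp, which stabilizes mitochondrial mRNA, a log2FC of -1.78 (adjusted p = 0.00924).

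The DEGs among the members were enumerated by the listed gene length, since the inferred fragment length differed between the groups. Of the 7 tested members under 750 bases, 4 were DEGs lower in IVO, namely Ndufaf8, Cox17, Uqcc2 and Sdhaf4, with a median log2FC of -1.23. Of the 8 members from 750 to 1500 bases 1 was a DEG, of the 11 from 1500 to 3000 bases 2 were DEGs, and of the 6 with 3000 bases or more 0 were DEGs. Over all tested Ensembl genes of the same classes, 22.2%, 18.8%, 12.7% and 11.5% were DEGs lower in IVO. Spearman's rho between log2FC and length was 0.348 across the 32 members and 0.098 across 13154 tested Ensembl genes, given as a description across genes that share the same 6 libraries. Ndufaf2, at 678 bases, and Cox20, at 471 bases, were short and were not DEGs, and Atpaf1, at 2330 bases, was a longer DEG. The part of length in the differences was not tested beyond the fit with the length trend removed, in which Uqcc2 and Cox17 were the only members called lower.

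**Figure D4:**
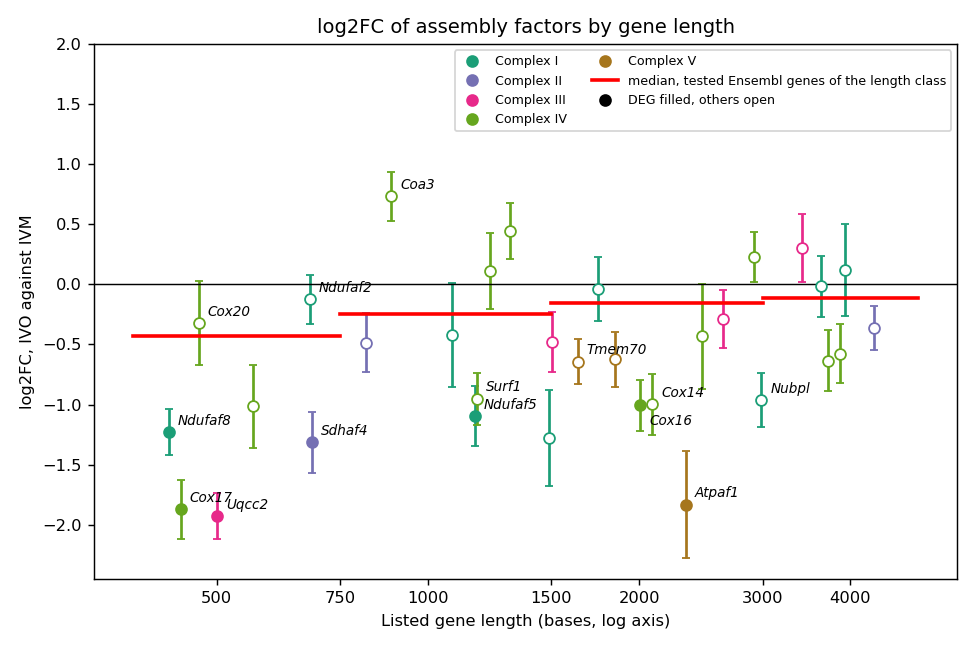
log2FC of the 32 tested assembly factors (with bars of 1 standard error, DEGs filled) against the listed gene length on a log axis, with red lines at the median log2FC of the tested Ensembl genes in 4 length classes. The 4 DEGs under 750 bases lie between -1.93 and -1.23, below the red line at -0.43, while Ndufaf2 of similar length lies at -0.12.

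Reads from exon bases that 2 genes share on the same strand cannot be told apart by strand. Those shared on opposite strands cannot be told apart where strand was not used, and the sources used here do not state a strand setting. In the GRCm39 annotation 29 of the 43 members share exon bases with another gene. The percentages here are of all annotated exon bases of a member, over all its transcripts. For Cox20 these are 5520 bases, against a listed length of 471, so the percentages are not shares of the measured length. Of the DEGs, Ndufaf8 shares 37.6% of its exon bases with Tepsin on the opposite strand (0.17 to 0.78 FPKM), and Uqcc2 shares 34.3% with Itpr3 on the opposite strand (0.01 to 0.12 FPKM), both far below the member. Cox16 shares 19.2% with S2bpcox16 on the same strand, which was listed at 4.07 to 9.28 FPKM, so its level is less certain. Cox17 shares 2.3% with Popdc2 on the same strand, which at 15.6 to 26.9 FPKM lay above Cox17 in the IVO samples. Among the other members, Surf1 shares 8.2% with Surf4 on the same strand (38.4 to 108 FPKM), and Coa6 shares 42.1% with Tarbp1 on the opposite strand (2.00 to 4.72 FPKM), so their levels are less certain too. Cox20 shares 71.6% with Hnrnpu on the opposite strand, at 30.9 to 48.6 FPKM, and its low value is uncertain. Ttc19 (0.85 to 2.39 FPKM) shares 21.6% with Ncor1 on the opposite strand, at 520 to 965 FPKM. Cox11 (0.93 to 2.84 FPKM) shares 38.6% with Tom1l1 on the opposite strand, at 10.5 to 23.9 FPKM. The low values of Ttc19 and Cox11, and the signs of their log2FC, are uncertain as well. Coa5 (2.55 to 6.06 FPKM) shares 50 bases (0.9%) with Unc50 on the opposite strand, which was listed at 1263 to 1909 FPKM, so its level and log2FC are less certain too. Of 21 other rows that carry the KEGG ortholog of a member, such as processed copies, 19 were listed at 0 in all samples and the highest value was 0.88 FPKM.

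Scaling moved the calls of the members as a group. As deposited, 7 members were DEGs lower in IVO, and of these Uqcc2 and Cox17 were DEGs lower in IVO under each of median-ratio scaling, scaling to the same sum, quantile normalization and the removed length trend. Atpaf1 was a DEG with scaling to the same sum (log2FC -1.50, adjusted p = 0.0437) but not with median-ratio scaling (-1.51, adjusted p = 0.0630). Ndufaf5, Ndufaf8, Sdhaf4 and Cox16 kept a negative log2FC and were not DEGs under any of these 4 alternatives. An adjusted p-value under 0.05 remained, with the fold under the threshold, for Ndufaf5 with median-ratio (-0.94, adjusted p = 0.0384) and same-sum scaling (-0.95, adjusted p = 0.0468), and for Ndufaf8 and Sdhaf4 under all 3 scalings. The signs of Ndufaf2, Ndufaf4 and Ndufaf7 turned positive under all 4, and no direction is given for them. With quantile normalization 10 members turned positive, adding Ndufaf6, Sdhaf2, Sdhaf3, Uqcc1, Lyrm7, Cox19 and Cox20. With the length trend removed 6 did, adding Sdhaf2, Uqcc1 and Cox20. The directions of these members thus depend on the scaling. Under these 4 alternatives the median log2FC of all tested genes lay between -0.04 and 0.17, against -0.30 as deposited.

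**Figure D5:**
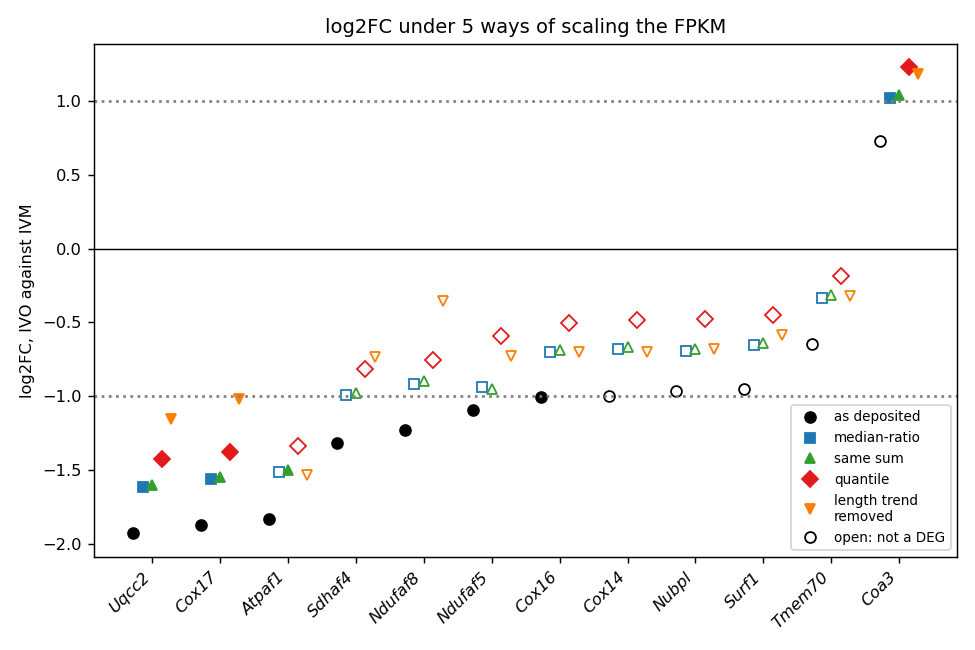
log2FC of IVO against IVM for the 12 members with an adjusted p-value under 0.05, under the FPKM as deposited, 3 other scalings and the removed length trend, with filled symbols for DEGs. Uqcc2 and Cox17 are filled in all 5, Coa3 is filled in each except as deposited, and the other lower members lie closer to 0 under each alternative than as deposited.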

How the data were processed

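SMART-Seq v4 libraries were sequenced in pairs. The authors trimmed the reads (SeqPrep, Sickle), mapped them to GRCm39 (HISAT2, version 2.1.0) and deposited FPKM per gene from RSEM (version 1.3.3). The deposited group means and KEGG columns were used only for checks, and the listed gene length was taken as deposited. The deposited values are not counts, so the count test of the Methods (DESeq2, version 1.24.0) was not run. For this report log2(FPKM + 1) was fitted with limma 3.58.1 in R 4.3.3 (eBayes with trend, the group as the only term). Genes averaging under 1 FPKM were left out, and two-sided p-values were adjusted by Benjamini-Hochberg over the remaining 18818 genes. The fit was tested on simulated data. Each sample is a pool of mice, and p-values measure the spread between pools.

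The members, gene lists and tests were chosen with earlier results of these data known. All members are named. Values in every sample were to be given for DEGs, for members with an adjusted p-value under 0.05 and for the most abundant member of each complex, and those of some further members were added after their values were seen. Of other lists, at most the 3 DEGs with the largest log2FC are named.

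Depth was inferred from FPKM under 2, worth fewer than 4.5 fragments, of genes whose single annotated transcript has 400 to 1500 bases. Of these values 76.8% to 80.9% lay within 0.15 of a whole fragment, where 30% would by chance, and fragment numbers per gene are estimates from the listed length. A pseudocount of 0.1, no minimum level, a minimum of 5 FPKM, median-ratio, same-sum and quantile scaling, eBayes with no trend, a replicate block, removal of the length trend by lowess (span 0.3), Ensembl genes only and leaving out each sample were tried. Coordinates are those of GENCODE on GRCm39. Tables and figures were made with Python 3.11.15, pandas 2.3.3 and matplotlib 3.10.9.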

Additional observations from a re-analysis of the deposited data

How the results depend on the processing

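With the FPKM as deposited, 7 members were DEGs lower and 0 were DEGs higher in IVO, among 3366 lower and 114 higher over all tested genes, and the median log2FC of the members was -0.53. With median-ratio scaling these were 2 and 1 members, 2130 and 385 genes and a median of -0.25. With scaling to the same sum they were 3 and 1, 2131 and 397, and -0.23. With quantile normalization they were 2 and 1, 1580 and 1097, and -0.0399. With the length trend removed they were 2 and 1, 1314 and 909, and -0.23. With both the length correction and the replicate block they were 1 and 0, 627 and 350, and -0.23. Without the filter the median over all 43 members was -0.32, which includes the low genes. With a minimum mean of 5 FPKM, 6 of 23 tested members were lower and 0 higher, among 2582 lower and 88 higher genes, and the median of the members was -0.48. Over Ensembl genes only, 1972 of the 13154 tested genes were lower, and 8 members, with Ndufaf3 added. With a pseudocount of 0.1, 10 members were lower, with Nubpl, Surf1 and Cox14 added, among 3328 genes. The cause of these shifts was not tested. Leaving out each sample in turn gave 5 to 8 members lower, 0 higher, medians from -0.61 to -0.47, and 2276 to 3174 genes lower and 82 to 130 higher. Samples with the same replicate number did not deviate together (correlations of -0.06, -0.02 and -0.11), no sample correlated best with its own number, and the samples share only a number. The replicate block gave 5 members lower, without Ndufaf5 and Atpaf1, and 2899 genes lower and 92 higher. No member that was a DEG as deposited changed the sign of its log2FC under any alternative. Of the other members, 10 changed sign with quantile normalization and 6 with the length trend removed.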
